A study of Mus musculus with 16 samples.

Results

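The piRNA pathway genes described here are 10 genes taken by name, *Piwil2*, *Piwil4*, *Mael*, *Tdrd1*, *Tdrd5*, *Tdrd9*, *Mov10l1*, *Gtsf1*, *Asz1* and *Pld6*, out of 30451 genes in the count table. They were followed in dissociated whole testes of mice at postnatal day 2 (P2), in wild type and in a germ cell-specific *Ddx5* conditional knockout. In the knockout, a floxed *Ddx5* allele was deleted by Cre recombinase under the germ cell promoter *Mvh* (*Mvh*-Cre), and an *Oct4*-GFP transgene marked germ cells. The strain was not given in the sources used here. Transcripts were counted by unique molecular identifiers (UMIs), each of which stands for 1 captured mRNA read near its 3′ end, so that a level given as UMIs per 1000000 UMIs of the same cells (CPM) does not scale with gene length.

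GEO's labels list 8 numbered libraries per genotype, but the barcodes of the table carry only a suffix for the genotype, so that all cells of a genotype form 1 library here. No test between the genotypes could be made with n = 1 each. All intervals are exact 95% intervals (Poisson for sums, Clopper-Pearson for shares of cells, conditional binomial for ratios), and they cover counting error only, not the spread between animals. The deposited barcodes hold 84263163 UMIs in wild type and 67558106 under the knockout label. A lower limit of 2000 genes and an upper limit of 10% mitochondrial UMIs left 6329 and 4950 cells, with medians of 11170 and 11668.5 UMIs per cell. Only 12 barcode sequences occurred in both libraries.

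The targeted gene did not check the knockout label. *Ddx5* stood at 1151 CPM in wild-type germ cells and at 1736 CPM in the germ cells of the other library. The study reports the opposite, a strong decrease of *Ddx5* mRNA by single-cell qRT-PCR in sorted *Oct4*-GFP-positive germ cells at P2. It states that this matched its single-cell sequencing. In the study's drawn scheme the counted 3′ end lies outside the part between the loxP sites. Whether this bears on the *Ddx5* level was not tested. CRE transcripts were at 0 UMIs in wild-type germ cells and at 20 UMIs in the others, and GFP was counted in both (105 and 47.5 CPM). The second library is therefore named by its label, and called the knockout-labelled library.

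piRNAs are small RNAs of the germline that guide PIWI proteins to transposon transcripts. In the male mouse the system is set up in fetal and newborn gonocytes, where PIWIL2 (MILI) cleaves transposon RNA in the cytoplasm and PIWIL4 (MIWI2) directs DNA methylation of transposons in the nucleus. Precursors are brought by the helicase MOV10L1 to the surface of mitochondria, where PLD6 (also called MitoPLD or ZUCCHINI) and the membrane-anchored ASZ1 (GASZ) take part in their processing, and Tudor domain proteins hold PIWI proteins in cytoplasmic granules.

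Germ cells were defined by a UMI of at least 3 of the 4 genes *Dazl*, *Ddx4*, *Slc25a31* and *Stk31*, none of which is among the 10 genes. By this rule there were 124 germ cells in wild type (1.96% of cells, interval 1.63% to 2.33%) and 12 in the knockout-labelled library (0.242%, interval 0.125% to 0.423%), with median depths of 34564.5 and 34528 UMIs. Cells with at least 3 UMIs of *Amh*, the hormone of immature Sertoli cells, that were not germ cells were taken as Sertoli cells (2219 and 1635 cells, median depths 13664 and 15847 UMIs), and the remaining 3986 and 3303 cells as other cells (9850.5 and 9966 UMIs).

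The germ cells of the libraries differed in more than their number. In wild type, 37 of the 124 germ cells also had at least 3 *Amh* UMIs, against 0 of 12 in the knockout-labelled library. All 7 Sertoli markers (*Amh*, *Rhox8*, *Sox9*, *Cst9*, *Cst12*, *Aard*, *Defb19*) were lower in the latter, with a summed level of 82.0 CPM against 1355 CPM in wild-type germ cells and 9239 CPM in wild-type Sertoli cells, and none was at 0 in either library. Across single germ cells the summed level ran from 0 to 10061 CPM (median 96.5) in wild type and from 0 to 197 CPM (median 77.4) in the others. All 5 stromal markers (*Dcn*, *Ogn*, *Dlk1*, *Col3a1*, *Pdgfra*) were instead higher in the knockout-labelled germ cells, with a summed level of 578.5 CPM against 362.6 CPM and none at 0, and all 5 macrophage markers were lower (71.2 against 159.6 CPM, *C1qa* and *Csf1r* at 0 there). The Leydig, myoid and endothelial lists were mixed, with 2 markers of each higher. Cytoplasmic ribosomal protein genes took 16.5% of wild-type germ cell UMIs and 34.1% of those in the knockout-labelled library. The median share of mitochondrial UMIs was 5.43% in wild-type germ cells and 2.78% in the others, and a limit of 5% left 51 of the 124 wild-type cells but all 12 of the others. The germ cell results are therefore also given without the 37 cells, and scaled to UMIs outside ribosomal protein genes where that moved them.

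The genes lie on 8 chromosomes of the mouse genome build GRCm38, the build named in the submitters' processing notes (positions from GENCODE M21). The PIWI genes are *Piwil2* (chr14:70372477-70429383, minus strand) and *Piwil4* (chr9:14696230-14740733, minus strand). *Mael* (chr1:166201201-166238747) and *Tdrd5* (chr1:156255296-156303664) share chromosome 1 and the minus strand, and *Mov10l1* (chr15:88982909-89055152, plus strand) and *Gtsf1* (chr15:103402405-103430470, minus strand) share chromosome 15. *Tdrd1* (chr19:56826209-56870012) and *Tdrd9* (chr12:111971559-112068854) are on the plus strand, *Asz1* (chr6:18050964-18109061) and *Pld6* (chr11:59783897-59787645) on the minus strand. No other gene on the same strand overlaps the counted 3′ end of any of them.

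Promoter sequences, from 250 bases before to 50 after each start site, were taken from RefSeq (build GRCm38.p6), which matched 9 of the 10 genes (not *Piwil2*). They are shown for 2 genes that were at least 50 times higher in germ than in somatic cells (*Mael*, *Mov10l1*) and for the 2 that were not (*Tdrd5*, *Pld6*). Capitals mark CACGTG, the canonical E-box, which is its own reverse complement, so that the search covers both strands. The motif was chosen after the sequences were seen. The windows are chr1:166238695-166238994 for *Mael*, chr15:88982744-88983043 for *Mov10l1*, chr1:156303299-156303598 for *Tdrd5* and chr11:59787608-59787907 for the upstream start of *Pld6*, and each is written 5′ to 3′ along its gene (plus strand for *Mov10l1*, minus strand for the others).
Mael: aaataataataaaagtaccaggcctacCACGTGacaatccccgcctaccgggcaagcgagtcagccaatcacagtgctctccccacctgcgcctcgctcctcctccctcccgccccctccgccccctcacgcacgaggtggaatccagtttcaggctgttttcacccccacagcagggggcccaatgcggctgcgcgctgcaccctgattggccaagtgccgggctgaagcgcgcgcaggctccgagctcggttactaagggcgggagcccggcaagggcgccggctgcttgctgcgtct
Mov10l1: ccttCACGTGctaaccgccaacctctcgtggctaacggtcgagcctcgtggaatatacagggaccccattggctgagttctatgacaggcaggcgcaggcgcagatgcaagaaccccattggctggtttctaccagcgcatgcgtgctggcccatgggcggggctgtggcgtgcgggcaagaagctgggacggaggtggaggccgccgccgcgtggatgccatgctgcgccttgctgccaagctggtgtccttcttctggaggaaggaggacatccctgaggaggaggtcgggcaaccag
Tdrd5: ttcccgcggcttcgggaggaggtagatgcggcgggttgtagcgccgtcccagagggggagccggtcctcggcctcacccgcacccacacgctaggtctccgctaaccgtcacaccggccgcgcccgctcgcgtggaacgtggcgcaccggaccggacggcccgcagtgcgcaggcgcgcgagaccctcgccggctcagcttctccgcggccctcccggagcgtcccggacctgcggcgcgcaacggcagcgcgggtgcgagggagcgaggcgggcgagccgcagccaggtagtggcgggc
Pld6: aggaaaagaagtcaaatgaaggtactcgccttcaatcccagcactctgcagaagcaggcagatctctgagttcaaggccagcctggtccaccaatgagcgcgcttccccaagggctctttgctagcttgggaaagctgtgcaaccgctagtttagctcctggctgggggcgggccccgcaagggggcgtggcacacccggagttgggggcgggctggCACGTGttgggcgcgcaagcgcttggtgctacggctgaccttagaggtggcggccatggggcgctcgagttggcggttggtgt

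CACGTG was found in a window of 5 of the 9 genes, against 8.09% of the 27025 genes with an entry. It began 223 bases before the start site in *Mael*, 246 in *Mov10l1* and 33 in *Pld6*, at 165 and 95 bases in *Tdrd9*, and once in the 2 overlapping start windows of *Tdrd1*. *Piwil4*, *Tdrd5*, *Gtsf1* and *Asz1* held none in their windows. The motif thus occurred both in genes confined to germ cells and in *Pld6*, and was missing from others of each kind. *Tdrd5* had the densest CpG content of these windows, 48 CpG in 300 bases, beside 24 in *Mael*, 20 in *Mov10l1* and a median of 7 (quartiles 3 and 20) over all 32851 windows of that length. These matches are descriptions of sequence and were not set against binding or methylation data.

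In wild-type germ cells all 10 genes were measured with at least 20 UMIs, and their levels spanned from 9.58 to 347 CPM. *Mael*, a granule and nuclear protein needed for transposon silencing, was the most abundant at 347 CPM (interval 329 to 365, 1484 UMIs). *Gtsf1*, a zinc finger partner of PIWI proteins, followed with 228 CPM (interval 214 to 243) and the helicase gene *Mov10l1* with 212 CPM (interval 198 to 226). These neighbours differed by 1.08 times, within counting error (interval 0.983 to 1.18).

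*Piwil2* had 148 CPM (interval 137 to 160) and *Asz1* 142 CPM (interval 131 to 153), a pair whose ratio of 1.05 was likewise within counting error (interval 0.936 to 1.17). The Tudor genes were lower, *Tdrd1* at 77.6 CPM (interval 69.4 to 86.4), *Tdrd5* at 67.8 CPM (interval 60.2 to 76.0) and *Tdrd9*, which also carries a helicase domain, at 52.6 CPM (interval 45.9 to 59.9). *Piwil4*, the nuclear PIWI gene, stood at 45.8 CPM (interval 39.6 to 52.7). *Pld6*, the mitochondrial nuclease or phospholipase gene, was the lowest at 9.58 CPM (interval 6.87 to 13.0, 41 UMIs). *Tdrd1* and *Tdrd5*, and *Tdrd9* and *Piwil4*, could not be ordered within counting error, whereas the remaining neighbours could.

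**Figure D1:**
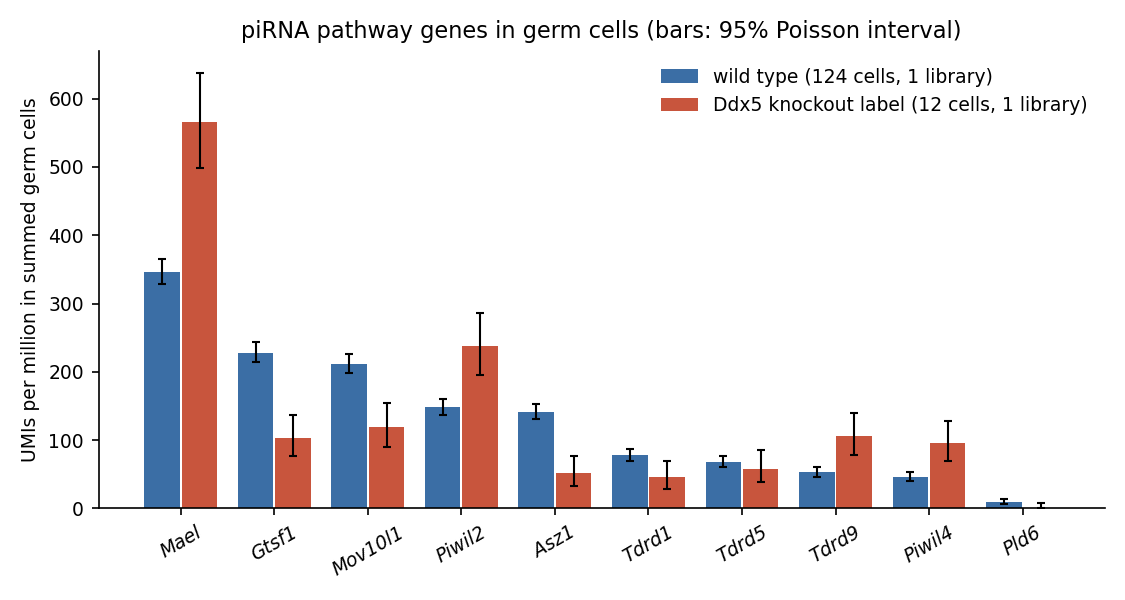
Level of each piRNA pathway gene (CPM) in the summed germ cells of wild type (124 cells) and of the knockout-labelled library (12 cells), ordered by the wild-type level, with exact 95% Poisson intervals as error bars. *Mael*, *Piwil2*, *Tdrd9* and *Piwil4* stand higher and *Gtsf1*, *Mov10l1*, *Asz1* and *Tdrd1* lower in the knockout-labelled library, where *Pld6* had 0 UMIs.

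The genes were found together in the same cells. A wild-type germ cell had UMIs of a median of 9 of the 10 genes (range 0 to 10), and 107 of the 124 cells had at least 5. In the knockout-labelled library the median was 8 (range 3 to 9, 11 of 12 cells with at least 5). After each cell was thinned to 5000 UMIs the medians were 4 (range 0 to 8, 122 cells) and 3 (range 2 to 6, 12 cells). Only 2 wild-type germ cells had none of the 10. Sertoli cells had at most 3 of them and other cells at most 2.

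*Mael* was detected in 120 of 124 wild-type germ cells, with 0 to 39 UMIs per cell and a median of 11, and in 12 of 12 in the other library, with 4 to 46 and a median of 21. *Gtsf1* was detected in 115 wild-type germ cells (median 8 UMIs, highest 24) and in 11 of 12 (median 3.5, highest 10). At the other end, *Pld6* was detected in 32 of 124 wild-type germ cells, never with more than 2 UMIs. The cells of the libraries overlapped in level for each gene, since the wild-type range began at 0 CPM for all 10 and reached above the highest cell of the other library, for example 1213 CPM against 732 CPM for *Mael*.

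Setting the germ cells of wild type against the others asked whether the piRNA genes differed together between the libraries. The summed level of the 10 genes was nearly equal, 1330 CPM (interval 1296 to 1365, 5693 UMIs) in wild type and 1382 CPM (interval 1277 to 1493, 640 UMIs) in the knockout-labelled library, a ratio of 1.04 (interval 0.956 to 1.13). This near equality came from genes that differed in opposite directions. The ratio interval lay above 1 for 4 genes, below 1 for 5 and across 1 for *Tdrd5*, against an interval above 1 for 11.5% and below 1 for 35.2% of the 12372 genes with at least 20 UMIs in the germ cells of both libraries together. The ratio of the sums moved with the choice of cells and scaling, since without the 37 wild-type cells with *Amh* UMIs its log2 ratio was −0.14 (0.05 with them), and scaled to UMIs outside ribosomal protein genes it was 0.40.

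Both PIWI genes and *Mael* were higher in the knockout-labelled library. *Piwil2* stood at 237 CPM (interval 195 to 286, 110 UMIs), 1.60 times the wild-type level (interval 1.30 to 1.96), and 11 of 12 cells had it, with a highest count of 19 UMIs in a cell. *Piwil4* stood at 95.0 CPM (44 UMIs), 2.07 times wild type (interval 1.46 to 2.89), and was likewise detected in 11 of 12 cells, against 85 of 124 in wild type. *Mael* reached 566 CPM (262 UMIs), 1.63 times wild type (interval 1.42 to 1.86). Scaled to UMIs outside ribosomal protein genes, the log2 ratios with 10 CPM added moved from 0.64 to 0.98 for *Piwil2* and from 0.69 to 1.03 for *Mael*, and without the *Amh*-positive cells that of *Mael* was 0.48. Under these 2 settings the log2 ratios of the 8 other genes stayed within their counting intervals. Of the Tudor genes *Tdrd9*, whose protein acts with PIWIL4, was higher as well, at 106 CPM (49 UMIs) and a ratio of 2.01 (interval 1.45 to 2.75), but these UMIs came from 8 of 12 cells, and 4 cells had none.

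*Asz1* and *Gtsf1* were the lowest relative to wild type among the genes with UMIs in both libraries. *Asz1* stood at 51.8 CPM (24 UMIs), a ratio of 0.366 (interval 0.233 to 0.550), and was found in 7 of 12 cells against 109 of 124. *Gtsf1* had 104 CPM (48 UMIs, ratio 0.454, interval 0.332 to 0.607), although 11 of 12 cells had it. *Mov10l1* had 119 CPM (55 UMIs, ratio 0.560, interval 0.419 to 0.736) and *Tdrd1*, the Tudor partner of PIWIL2, 45.3 CPM (21 UMIs, ratio 0.584, interval 0.357 to 0.908). *Pld6* had 0 UMIs in 463254 germ cell UMIs, which allows a level of up to 6.48 CPM at a floor of 3 UMIs and puts it at least 1.48-fold lower at that floor. Its exact ratio interval ran from 0 to 0.870. *Tdrd5* differed by less than counting error, with 58.3 CPM (27 UMIs) and a ratio of 0.860 (interval 0.557 to 1.28).

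**Figure D2:**
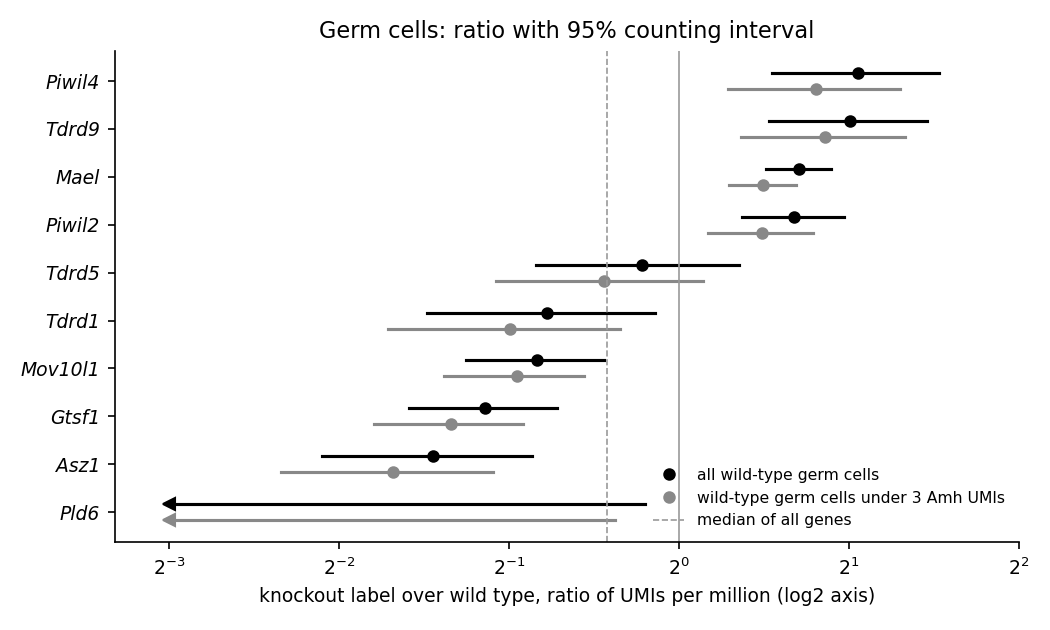
Ratio of the germ cell level in the knockout-labelled library to that in wild type for each gene, on a log2 axis, with 95% counting intervals (black, all wild-type germ cells; grey, wild-type germ cells with fewer than 3 *Amh* UMIs). The solid line marks a ratio of 1, the dashed line the median of all genes, and the arrows of *Pld6* mean 0 UMIs. *Piwil4*, *Tdrd9*, *Mael* and *Piwil2* lie right of 1 and *Mov10l1*, *Gtsf1* and *Asz1* left of it in both sets of cells.

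A majority of all genes were lower in the germ cells of the knockout-labelled library. The median log2 ratio over the 12372 genes that had 20 or more UMIs with 10 CPM added to each level was −0.42, and that of the 10 piRNA genes was also −0.42, with 5 of the 10 above the median of all genes. The match of the medians depended on the choices. Outside ribosomal protein genes they were −0.26 for all genes and −0.14 for the 10, and without the *Amh*-positive cells −0.46 and −0.62. In cells chosen by GFP or CRE UMIs they were −0.65 and −0.13, and without the deepest cell of each library −0.43 and −0.29. The choice by GFP or CRE took 51 wild-type cells, those with more than 2 GFP UMIs. In the knockout-labelled library it took only 4 cells, those with more than 1 CRE UMI. With a minimum of 1 UMI the median of all genes was −0.07, and with 50 UMIs −0.59. By a limit of 2-fold, 2 of 10 (*Gtsf1*, *Asz1*) were lower, where 38.8% of all genes were, and 2 of 10 (*Piwil4*, *Tdrd9*) were higher, where 9.64% of all genes were. These shares of all genes rest on the minimum of 20 UMIs, since with a minimum of 1 UMI they were 20.1% lower and 24.4% higher. The count of piRNA genes higher was 0 without the *Amh*-positive germ cells, 0 without the deepest cell of each library and 4 scaled to UMIs outside ribosomal protein genes, where 15.0% of all genes were higher and 28.6% lower and 1 piRNA gene was lower. The intervals were steadier than the fold limit. Over 8 other choices of cells or scaling, those of *Piwil2*, *Piwil4* and *Mael* stayed above 1 and those of *Gtsf1* and *Asz1* below 1 in all 8, those of *Tdrd9* and *Mov10l1* in 7 (not with cells chosen by GFP or CRE UMIs), and those of *Tdrd1* and *Pld6* in 5. The part of the Sertoli, stromal and macrophage transcripts, the ribosomal and mitochondrial shares and the number of cells in these ratios was not tested.

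The 12 germ cells of the knockout-labelled library can be described singly. The deepest cell (76562 UMIs) held 19 *Piwil2*, 10 *Piwil4*, 34 *Mael* and 14 *Tdrd9* UMIs but 0 of *Tdrd1*. The shallowest (12717 UMIs) held 6 *Mael*, 2 *Piwil4* and 2 *Mov10l1* UMIs and none of the remaining 7 genes. The summed level of the 10 genes ran from 710 to 1747 CPM (median 1326) over these cells, inside the wild-type range of 0 to 2710 CPM (median 1349).

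The next question was which of the genes were confined to germ cells. In wild type, 8 of the 10 genes were at least 50 times higher in germ cells than both in Sertoli cells and in other cells, a pattern met by 4.61% of 11944 genes with at least 20 UMIs in wild-type germ cells. The 2 exceptions were *Tdrd5* and *Pld6*, and the same 8 and 2 genes were obtained in the knockout-labelled library. *Mov10l1* had 212 CPM in germ cells against 0.141 CPM (5 UMIs) in Sertoli cells (1500-fold, interval 641 to 4632) and 0.0925 CPM in other cells. The ratios over Sertoli cells of *Gtsf1* (1154-fold, interval 558 to 2879), *Tdrd9* (930-fold, interval 255 to 7730) and *Mael* (767-fold, interval 471 to 1346) had intervals that overlapped it, and so did those of *Asz1* (557-fold, interval 291 to 1224), *Tdrd1* (458-fold, interval 208 to 1256) and *Piwil4* (324-fold, interval 137 to 1010).

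*Piwil2* passed the limit by less. It had 1.84 CPM (65 UMIs) in wild-type Sertoli cells, 80.8 times below germ cells (interval 62.5 to 106), and 0.416 CPM in other cells. *Piwil4* passed it against other cells by 86.1 times (interval 55.7 to 139), because 23 UMIs lay there, 16 of them in stromal cells, against 5 in Sertoli cells. Both lost the call at a limit of 100-fold, which left 6 genes.

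**Figure D3:**
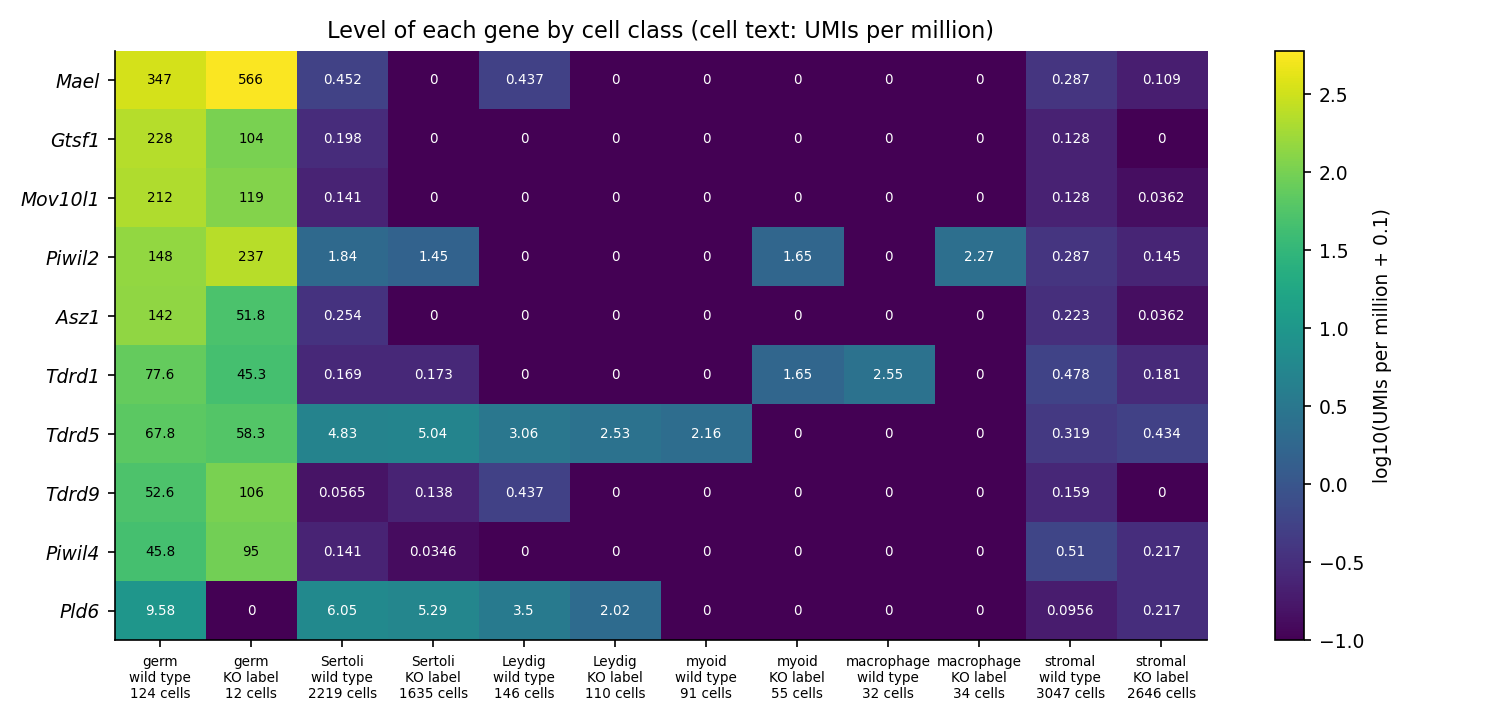
Level of each gene (CPM, printed in each box and coloured as log10 of the level plus 0.1) in germ, Sertoli, Leydig, peritubular myoid, macrophage and stromal cells of both libraries, with the number of cells under each column. The germ columns hold the highest level of every gene except *Pld6* in the knockout-labelled library, and *Tdrd5* and *Pld6* have levels of 2.02 to 6.05 in Sertoli and Leydig cells.

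*Tdrd5* and *Pld6* had the most UMIs in Sertoli cells of the 10 genes, followed by *Piwil2*. *Pld6* had 214 UMIs in wild-type Sertoli cells (6.05 CPM, interval 5.26 to 6.91), only 1.58 times below its germ cell level (interval 1.11 to 2.22), and 153 UMIs in knockout-labelled Sertoli cells (5.29 CPM, interval 4.48 to 6.19). *Tdrd5* had 171 and 146 UMIs (4.83 CPM, interval 4.13 to 5.61, and 5.04 CPM, interval 4.26 to 5.93), 14.0 times below germ cells in wild type (interval 11.6 to 17.0). A UMI of *Pld6* was found in 8.88% of wild-type Sertoli cells (interval 7.73% to 10.1%) and one of *Tdrd5* in 7.12% (interval 6.08% to 8.27%), against 0.477% and 0.602% of other cells. After thinning to 5000 UMIs, which left out 18 shallower cells, the Sertoli shares were 3.13% and 2.68%. *Mael*, the most abundant of the genes in germ cells, was seen in 0.721% of wild-type Sertoli cells and 0.301% of other cells.

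Within somatic cells *Pld6*, *Tdrd5* and *Piwil2* had higher levels in Sertoli cells than in other cells. Of the 6 piRNA genes with at least 20 somatic UMIs in wild type, 3 were at least 2-fold higher in Sertoli than in other cells. Of all 17433 genes 14.2% were (a comparison added after the values were seen). The limit was set on Sertoli and other UMIs together. *Piwil2* (18 UMIs) and *Pld6* (19 UMIs) did not meet it in other cells alone, so the count follows in part from the limit. *Pld6* was 13.8 times higher (interval 8.60 to 23.3), *Tdrd5* 8.70 times (interval 5.66 to 14.0) and *Piwil2* 4.41 times (interval 2.58 to 7.90). The ratios in the knockout-labelled library were 13.9, 8.07 and 7.63. *Piwil4* went the other way, 0.266 times as high in Sertoli as in other cells (interval 0.0789 to 0.714).

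**Figure D4:**
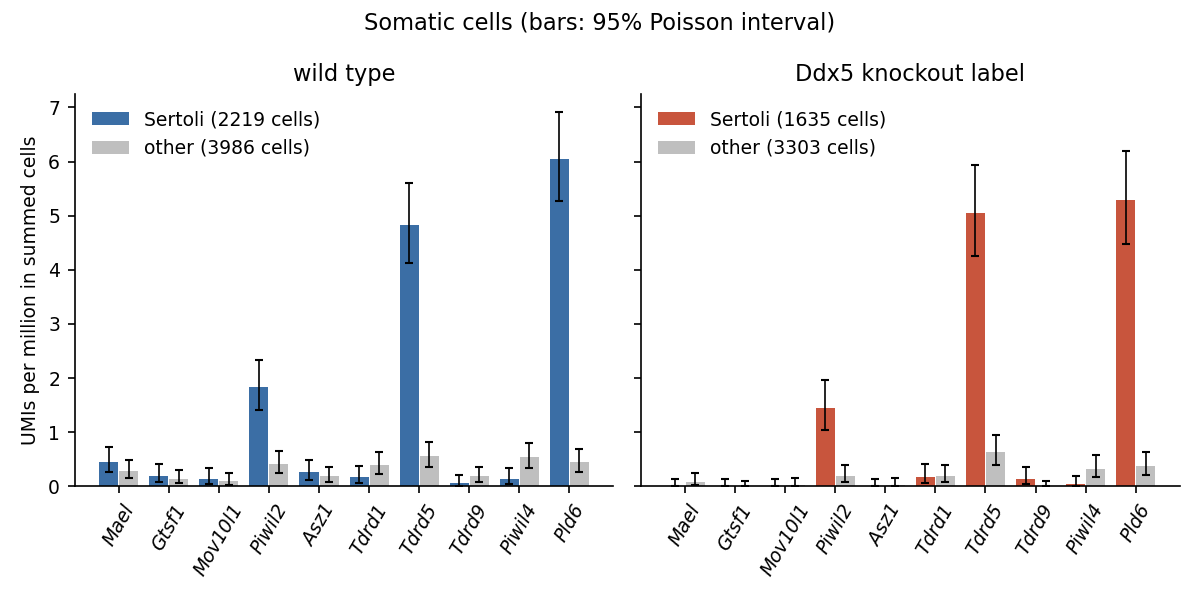
Level of each gene (CPM) in the summed Sertoli cells (coloured) and other cells (grey) of wild type (left) and of the knockout-labelled library (right), with exact 95% Poisson intervals. *Pld6*, *Tdrd5* and *Piwil2* have Sertoli levels of 6.05, 4.83 and 1.84 in wild type and of 5.29, 5.04 and 1.45 in the other library, while *Mael*, *Gtsf1*, *Mov10l1* and *Asz1* are at 0 in its Sertoli cells.

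The somatic counts can also be compared between the libraries, though the source of these UMIs was not tested. Germ cells held 5.16% of all kept UMIs in wild type and 0.700% in the knockout-labelled library. In its Sertoli cells *Mael*, *Gtsf1*, *Mov10l1* and *Asz1* had 0 UMIs, which allows up to 0.104 CPM at a floor of 3 UMIs, against 0.452, 0.198, 0.141 and 0.254 CPM in wild-type Sertoli cells. *Piwil2*, *Tdrd5* and *Pld6*, which are set apart here, had the most Sertoli UMIs in these same data, so the split is not independent of the counts. Together the other 7 genes went from 50 to 10 Sertoli UMIs, a ratio of levels of 0.245 (interval 0.111 to 0.488). The ratio was not below 1 for each of the 7. *Tdrd1* had 6 and 5 UMIs (ratio 1.02, interval 0.246 to 4.01) and *Tdrd9* 2 and 4 (ratio 2.45, interval 0.351 to 27.0), which were 9 of the 10 UMIs left. Both intervals overlap that of the sum, so these few UMIs cannot tell whether the fall was shared. *Piwil2*, *Tdrd5* and *Pld6* went from 450 to 341, a ratio of 0.927 (interval 0.803 to 1.07). In other cells the ratios of the same sums were 0.361 (interval 0.219 to 0.578) and 0.847 (interval 0.562 to 1.27). Of the germ markers in Sertoli cells, *Dazl* had a ratio of 0.183, *Slc25a31* of 0.106 and *Ddx4* of 0.594 (interval 0.312 to 1.09), and *Stk31* went from 15 UMIs to 0. In other cells *Dazl* had a ratio of 0.284 (interval 0.105 to 0.662) and *Stk31* of 0.0979 (interval 0.0112 to 0.394). *Slc25a31* had a ratio of 0.801 there (interval 0.387 to 1.62), and *Ddx4* stood level (ratio 1.01, interval 0.627 to 1.61).

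Germ marker transcripts were also counted in the Sertoli cells that held these UMIs. Cells with at least 3 of the 4 germ marker genes were not in the Sertoli class, so low shares follow in part from that rule. A UMI of any of the 4 germ marker genes was found in 4.06% of all wild-type Sertoli cells, in 2.53% of those with *Tdrd5*, in 4.06% of those with *Pld6* and in 3.57% of those with *Piwil2*, but in 3 of the 9 with *Asz1* and 2 of the 16 with *Mael*. In the knockout-labelled library the share was 1.35% of all Sertoli cells, 3.08% of those with *Tdrd5* (4 of 130), 3.40% of those with *Pld6* (5 of 147) and 0 of the 38 with *Piwil2*. In the 2129 wild-type Sertoli cells without any germ marker UMI the levels were 6.10 CPM for *Pld6*, 4.97 CPM for *Tdrd5* and 1.87 CPM for *Piwil2*, and in the 1613 such cells of the knockout-labelled library 5.20, 4.99 and 1.48 CPM. For *Tdrd5*, *Pld6* and *Piwil2*, positive Sertoli cells were as deep as or deeper than negative ones. Median depths for *Tdrd5* were 13726.5 against 13653 UMIs in wild type and 17241 against 15777 in the knockout-labelled library. The medians were 14509 against 13582.5 and 16461 against 15776 for *Pld6*, and 18481 against 13573 and 17311 against 15784 for *Piwil2*. Most positive cells had 1 UMI, 146 of 158 for *Tdrd5* and 182 of 197 for *Pld6*, so the share of Sertoli cells that express either gene could not be read from these counts.

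Other somatic types were gated by 2 UMIs each of at least 3 markers of a type. Leydig cells, the steroid-producing cells (146 and 110 cells), had 7 and 5 UMIs of *Tdrd5* (3.06 and 2.53 CPM) and 8 and 4 of *Pld6* (3.50 and 2.02 CPM), and in both libraries 0 UMIs of the other 8 genes apart from 1 each of *Mael* and *Tdrd9* in wild type. Stromal cells (3047 and 2646) had 82 and 38 UMIs of all 10 genes together, 2.61 and 1.37 CPM. In 91 and 55 peritubular myoid cells and 32 and 34 macrophages no gene had more than 2 UMIs. Only 2 endothelial cells per library passed the gate, too few for any value.

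The other genes of the pathway give a frame for the 10. Of 13 later or auxiliary piRNA genes, all with at least 20 UMIs in wild-type germ cells, 7 were confined to germ cells by the same 50-fold limit (*Piwil1*, *Tdrd6*, *Tdrd12*, *Henmt1*, *Exd1*, *Gpat2*, *Btbd18*). *Piwil1* (MIWI), the PIWI gene of meiotic and later male germ cells, was at 15.7 CPM. *Mybl1*, the transcription factor of pachytene piRNA loci, was the reverse of restricted, with 32.5 CPM in Sertoli cells against 9.35 CPM in germ cells. *Fkbp6*, a co-chaperone of piRNA loading, had 405 CPM in germ cells and also 13.8 CPM in Sertoli cells.

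Between the libraries, 0 of the 13 were at least 2-fold higher and 2 were at least 2-fold lower in the knockout-labelled library, beside 9.64% and 38.8% of all genes. The 2 lower genes were *Tdrd12* (52.6 and 6.48 CPM, ratio 0.123) and *Pnldc1*, the trimmer of piRNA 3′ ends (35.7 and 4.32 CPM, ratio 0.121). They rest on 3 and 2 UMIs there. *Fkbp6* stood at 764 CPM, 1.89 times wild type.

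Of 7 genes for silencing downstream of piRNAs, 3 were at least 2-fold higher and 1 lower, beside the same 9.64% and 38.8% of all genes. *Dnmt3l*, the cofactor of de novo DNA methylation, had 84 UMIs in 124 wild-type germ cells (19.6 CPM) and 129 UMIs in 12 cells of the other library (278 CPM), 14.2 times higher (interval 10.7 to 18.9). *Spocd1*, which links PIWIL4 to DNA methylation, had 13.3 and 147 CPM (ratio 11.0). *Ehmt2* (G9a), a histone methyltransferase, had 132 and 315 CPM, and *Setdb1*, another, 92.5 and 17.3 CPM (ratio 0.187). Only *Spocd1* and *Morc1* of the 7 were confined to germ cells by the 50-fold limit.

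**Figure D5:**
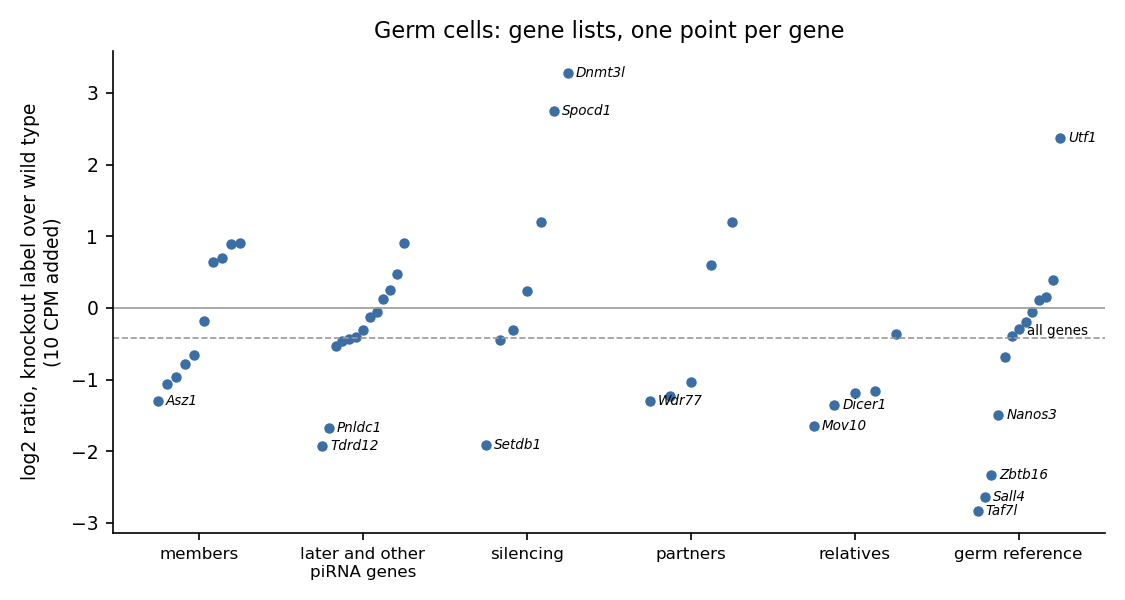
Log2 ratio of germ cell levels (knockout-labelled library over wild type, 10 CPM added) for each gene with at least 20 UMIs in the 10 piRNA genes and 5 further lists, 1 point per gene. The dashed line is the median of all genes at −0.42, and *Dnmt3l* and *Spocd1* stand highest while *Taf7l*, *Sall4* and *Zbtb16* stand lowest.

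Of 5 broadly expressed partners, 1 (*Hsp90aa1*, 2324 and 5340 CPM) was 2-fold higher and 3 (*Wdr77*, *Snd1*, *Ddx39b*) were 2-fold lower, and of 5 measured relatives outside the pathway 0 were higher and 4 were lower, beside 9.64% of all genes higher and 38.8% lower. The lower calls of *Mov10* (2 UMIs), *Tdrd3* (1 UMI), *Ago2* (2 UMIs) and *Snd1* (4 UMIs) rest on few UMIs in the knockout-labelled library. Among the relatives *Dicer1*, the nuclease of the microRNA pathway, had 132 and 45.3 CPM (ratio 0.344). None of the partners and relatives with at least 20 UMIs was confined to germ cells. *Mov10*, a relative of *Mov10l1*, had 33.8 CPM in wild-type Sertoli cells, where *Mov10l1* had 0.141 CPM. Its level in wild-type germ cells was nearly the same, 35.0 CPM (ratio to Sertoli cells 1.04, interval 0.870 to 1.23).

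A list of 15 other germ cell genes, used to check the cells, gave 10 that were confined to germ cells. Of the 13 with at least 20 UMIs, 1 (*Utf1*, 46.3 and 281 CPM) was 2-fold higher and 5 were 2-fold lower, among them *Sall4* (254 and 32.4 CPM) and *Taf7l* (246 and 25.9 CPM), shares close to the 9.64% and 38.8% of all genes. Others, such as *Tex101* (221 and 212 CPM) and *Sohlh1* (111 and 121 CPM), stood nearly level. Below 20 UMIs were *Nanos2*, with 10 UMIs in wild-type germ cells and 0 in the others (ratio interval 0 to 4.12), and *Dppa3*. The latter had 6 and 11 UMIs (ratio 16.9, interval 5.74 to 55.8).

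Over 18 profiles (the cell classes of both libraries) the genes most like the mean of the 10 by Pearson correlation of log2(CPM + 10), out of 3837 with at least 50 CPM in wild-type germ cells, were *Dppa5a* (0.999), *Gm773* (0.999), *Trap1a* (0.999), *Cox8c* (0.999) and *Rbmxl2* (0.999). The classes do not share cells, but the profiles share their libraries and include the 2 endothelial cells of each, so these values only describe. Of the 10, *Mov10l1* was nearest to the mean (0.996) and *Pld6* farthest from it (0.389), with the others between 0.977 and 0.994.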

How the data were processed

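Single-cell libraries of whole P2 testes were counted by the authors with Cell Ranger 3.1.0 on build GRCm38 (per the submitters' processing notes) with GFP and CRE added. The annotation version is not given in the sources used here. The deposited table holds raw UMI counts, without normalization, of the barcodes that Cell Ranger had called as cells, before the limits on genes and mitochondrial UMIs. No file pairs a barcode suffix with a genotype. The 5423 barcodes ending in suffix 4 are too few for the number of wild-type cells that the study kept, which assigns suffix 3 (6763 barcodes) to wild type. UMIs were summed per class and library and scaled to CPM. A gene at 0 was set to a floor of 3 UMIs over the group, and log2 ratios have 10 CPM added. Scrublet (scanpy 1.11.5) was run on each library, and its doublets (284 and 296 cells, 10 and 0 of them germ cells) were retained. The intervals were checked on simulated data. Members and gene lists were chosen with earlier results of these data known, and all members are named; other genes were named from the lists or by likeness to the mean of the members. Python 3.11.15, NumPy 2.4.6 and SciPy 1.17.1 were used.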

Additional observations from a re-analysis of the deposited data

How the results depend on the processing

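No paired analysis was possible because barcodes carry no library number and each genotype is 1 library. Results were recomputed with 1 choice changed at a time, and 53 of 77 recomputed values of the main results stayed within counting error (counts within 1.5 times); the causes of the others were not tested. With at most 5% mitochondrial UMIs 51 wild-type germ cells were left. The summed level in wild-type germ cells was 1271 CPM with 2 of 4 markers, 1430 CPM in the 51 cells chosen by GFP UMIs and 1524 CPM without *Amh*-positive cells. It was 1592 CPM outside ribosomal protein genes and 1409 CPM outside mitochondrial genes. In the knockout-labelled library it was 1561 CPM in the 4 cells chosen by CRE UMIs, 2097 CPM outside ribosomal protein genes and 1268 CPM as a mean over cells. The log2 ratio of the sums was −0.14 without *Amh*-positive cells and 0.40 outside ribosomal protein genes. Of the members, 1 was 2-fold higher with all 4 markers, in cells chosen by GFP or CRE UMIs, without doublets or outside mitochondrial genes, 0 without *Amh*-positive cells or without the deepest cells, and 4 outside ribosomal protein genes, where 1 was 2-fold lower (15.0% of all genes higher and 28.6% lower there). The share of all genes 2-fold lower was 20.1% and that higher 24.4% with a minimum of 1 UMI in place of 20. No direction called for a single gene turned. The count of confined members was 6 at 100-fold and 8 in all 6 other settings. Thinned to 5000 UMIs, Sertoli cells had UMIs of *Piwil2* in 0.863%, of *Tdrd5* in 2.68% and of *Pld6* in 3.13%, and germ cells a median of 4 members in wild type and 3 in the others. The 12 knockout-labelled germ cells and their 463254 UMIs limit every germ cell ratio between the libraries.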

Other observations

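Wild-type germ cells were divided after the values were seen by whether they held a UMI of *Dnmt3l* or *Spocd1*, both of which were higher in the knockout-labelled library. The 65 cells with such a UMI had a median depth of 39225 UMIs and the 59 without 26576, so the division also follows depth. Of the 10 members 9, all but *Pld6*, were higher in the former, beside 58.5% of 11944 genes with at least 20 UMIs and 11 of 13 other germ cell genes, and their summed level was 1432 CPM (interval 1387 to 1479) against 1170 CPM (interval 1119 to 1223). *Tdrd9* stood at 64.3 CPM (interval 54.9 to 74.7) in the former and 34.2 CPM (interval 25.9 to 44.3) in the latter, and *Tdrd1* at 90.7 CPM (interval 79.5 to 103) and 57.0 CPM (interval 46.1 to 69.7). *Mael* had 372 and 307 CPM and *Gtsf1* 250 and 194 CPM, whereas the intervals of *Piwil4* (47.0 and 43.8 CPM), *Mov10l1* (215 and 207 CPM), *Tdrd5* (73.1 and 59.4 CPM), *Asz1* (150.3 and 127.9 CPM) and *Pld6* (8.03 and 12.01 CPM) overlapped.

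The 37 wild-type germ cells with at least 3 *Amh* UMIs had lower levels of all 10 members than the 87 others (summed level 990.1 against 1524 CPM), as they had of 55.4% of the 11944 genes and of 13 of the 13 other germ cell genes. Examples were 250 against 402 CPM of *Mael*, 168 against 263 CPM of *Gtsf1*, 97.9 against 166 CPM of *Asz1* and 111 against 169 CPM of *Piwil2*. Their median depth was 43060 UMIs against 32052. *Pld6* had 7.08 CPM (interval 3.54 to 12.7, 11 UMIs) in the former and 11.0 CPM (interval 7.42 to 15.7, 30 UMIs) in the latter. The source of these UMIs was not tested.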
